A study of Mus musculus with 18 samples.

Results

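The mitochondrial ribosomal protein genes are those whose symbol starts with Mrpl or Mrps followed by a digit, and 72 of the 11738 gene symbols in 3 count tables of mouse hippocampal RNA met that rule. The table of the deletion listed 71 of them among 10541 genes, the table of tTA::miR132 listed 70 among 10799, and the table of tTA::miR212 listed 5 among 4618. Polyadenylated RNA of C57BL/6 hippocampus was sequenced to ask how loss and gain of the neuronal microRNAs miR-132 and miR-212 alter gene expression. In CaMKII-Cre::miR-132/212f/f mice, called the deletion, a Cre recombinase under the CaMKII promoter, which is active in forebrain excitatory neurons, removes both microRNA genes. Other cells of the hippocampus keep them. In tTA::miR132 and tTA::miR212 mice, a tetracycline transactivator switches on a transgene for the named microRNA. The sources used here do not give the promoter of the transactivator or the age of the animals. Each modified line had its own nontransgenic controls, which lack the driver as well, so an effect of Cre or of the transactivator cannot be told apart from one of the microRNA. The labels list 18 samples, 3 in each of 6 groups, and describe the replicates as pools of cDNA from 6 animals. The tables hold 14 libraries, 2 per group for the deletion and tTA::miR132 and 3 per group for tTA::miR212. Libraries are numbered as in the column names, and the third libraries of the other 4 groups were not analysed here.

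Mitochondria translate the few messages of their own genome, all of which encode subunits of the respiratory chain and ATP synthase, on a ribosome of their own. Its RNA is made in the mitochondrion, but all of its proteins are encoded in the nucleus, made in the cytosol and imported. The large subunit (mostly Mrpl proteins) joins amino acids and holds the tunnel through which the new chain leaves, while the small subunit (mostly Mrps proteins) reads the message. Some members descend from bacterial ribosomal proteins and others occur only in mitochondria. Neurons depend on oxidative phosphorylation for synaptic transmission, and the genes are active in every cell type of the hippocampus. The members split into 47 proteins of the large subunit, with Mrps30 and Mrps18a counted there because both sit in it, and 25 of the small subunit. A bacterial counterpart exists for 45 and none for the other 27. The genes lie on 17 chromosomes.

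The 3p arms of both microRNAs share a seed, the bases 2 to 8 that pair with a message. Their sequences are shown because that seed decides which members could carry a site for these arms. The 5p arms have other seeds, which were not searched. The RefSeq sequences of the 3p arms, made from chromosome 11 (GRCm38.p6, plus strand), are given with the seed in capitals.
mmu-miR-132-3p: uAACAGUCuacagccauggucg
mmu-miR-212-3p: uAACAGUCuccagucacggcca
The letters that pair with this seed, GACTGTT, were searched in the longest annotated 3′ UTR of each gene (GENCODE on the mm9 assembly). They occurred in 6 of 72 members, or 8.33%, against 13.4% of the genes of the deletion table and 13.3% of those of the tTA::miR132 table. The 3′ UTRs of the members were also shorter, with a median of 362.5 nucleotides against 1310 and 1295. Short windows around the sites follow, with the pairing letters in capitals.
Mrpl20: gcagtgctataGACTGTTataaacaagata
Mrpl35: taaggatgaatGACTGTTtgaaatccattg
Mrpl36: atatttgtcatGACTGTTctt
Mrps12: tgattcagcaaGACTGTTgttaacctgcaa
Mrps25: aggccacatgtGACTGTTttgaggaaaaaa
Mrps26, first site: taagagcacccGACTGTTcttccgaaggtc
Mrps26, second site: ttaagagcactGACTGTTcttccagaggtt
The site of Mrpl20 alone was followed by an A, a base that strengthens such sites. The sites of Mrps26 lie at bases 2369 and 2653 of a 3′ UTR of 3638 nucleotides. Its transcript ends at 130394431, past the end of 130391130 listed for the gene in the deletion, so the counted message may lack them. A match is only a run of letters and does not show that a microRNA acts there. The log2 fold changes of these genes ran from -0.39 (Mrpl20) to 1.20 (Mrps12) in the deletion, from -0.53 (Mrpl36) to 0.39 (Mrpl20) under tTA::miR132, and were -0.04 (Mrps25) and 0.03 (Mrps26) under tTA::miR212. None passed the test in any comparison.

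The promoters of the members are shown because the genes are known targets of the factors NRF-1, GABPA (an ETS factor) and YY1, which tie nuclear genes to mitochondrial output. RefSeq promoters (250 bases before to 50 after a start, GRCm38.p6) were at hand for 63 members, 69 promoters in all. The letters TGCGCATGC of NRF-1 occurred, on either strand, in 8.7% of them, against 2.86% of 9769 promoters of genes in the deletion table and 1.52% of all 32851. The ETS letters CCGGAAGT occurred in 17.4%, against 7.09% and 3.89%. The YY1 letters AAGATGGCG occurred in 11.6%, against 2.86% and 1.4%. Any of the 3 runs occurred in 36.2% of the members' promoters, against 12.2% and 6.52%. The promoters of Mrps12, Mrpl11 and Mrpl10, the members with the smallest p-value in the deletion, tTA::miR132 and tTA::miR212 comparisons, are printed with that of Mrps27, the one promoter of a member with the letters of 2 factors (picked after its letters were seen). Capitals mark the searched letters or their reverse complement.
Mrps12 (chr7:28741772-28742071, minus strand): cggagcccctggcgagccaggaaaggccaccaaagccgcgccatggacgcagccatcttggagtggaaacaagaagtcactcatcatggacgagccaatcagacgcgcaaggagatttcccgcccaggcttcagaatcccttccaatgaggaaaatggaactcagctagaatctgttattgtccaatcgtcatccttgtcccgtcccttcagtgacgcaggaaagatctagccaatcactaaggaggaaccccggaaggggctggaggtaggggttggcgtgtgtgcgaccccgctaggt
Mrpl11 (chr19:4962056-4962355, plus strand): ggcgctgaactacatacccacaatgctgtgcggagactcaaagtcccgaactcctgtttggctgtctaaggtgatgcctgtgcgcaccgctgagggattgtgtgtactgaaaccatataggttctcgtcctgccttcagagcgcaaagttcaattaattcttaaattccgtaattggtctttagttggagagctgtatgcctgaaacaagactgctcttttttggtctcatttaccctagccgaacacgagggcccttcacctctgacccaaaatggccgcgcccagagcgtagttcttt
Mrpl10 (chr11:97041332-97041631, plus strand): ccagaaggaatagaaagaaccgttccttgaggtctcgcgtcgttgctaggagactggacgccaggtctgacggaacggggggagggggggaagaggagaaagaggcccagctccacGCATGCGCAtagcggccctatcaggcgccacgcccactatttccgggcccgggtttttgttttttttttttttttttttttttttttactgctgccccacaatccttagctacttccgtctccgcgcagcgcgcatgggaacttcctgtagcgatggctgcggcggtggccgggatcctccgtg
Mrps27 (chr13:99344536-99344835, plus strand): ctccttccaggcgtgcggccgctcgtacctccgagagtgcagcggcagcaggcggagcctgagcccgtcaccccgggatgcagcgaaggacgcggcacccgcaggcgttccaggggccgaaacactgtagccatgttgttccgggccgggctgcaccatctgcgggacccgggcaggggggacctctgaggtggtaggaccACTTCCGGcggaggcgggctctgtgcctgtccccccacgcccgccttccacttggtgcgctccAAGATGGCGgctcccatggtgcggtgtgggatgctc
Mrpl10 holds the NRF-1 letters and Mrps27 those of ETS and YY1, while the windows of Mrps12 and Mrpl11 hold none of the 3 exact runs.

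**Figure D1:**
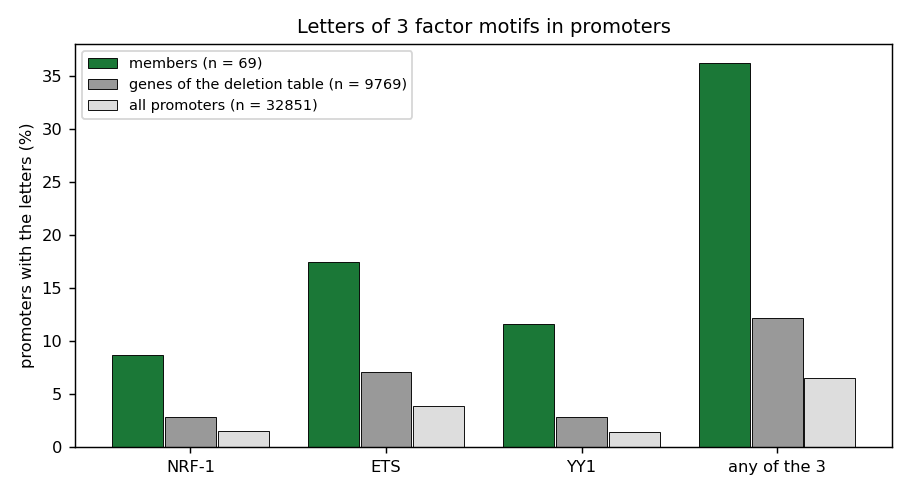
Percentage of promoters that hold the letters of NRF-1, ETS or YY1, or any of the 3, among members, genes of the deletion table and all RefSeq promoters (bars, shares of promoters; n in the legend). The members' bars are the tallest for each factor, reaching 36.2% for any of the 3 against 12.2% and 6.52%.

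Libraries were not equally complete. Total counts were 9408155 and 9702801 in the deletion against 9432812 and 8190899 in its controls, 14772907 and 8772987 in tTA::miR132 against 9899963 and 8301385 in its controls, and 1299369 to 1544923 in the tTA::miR212 table with 1 transcript kept per gene. Deletion library 1 had 9.93% of its genes at 0 and the other libraries of that table at most 1.14%. Among libraries of the tTA::miR132 comparison, control 2 had 4.49% of genes at 0 and the rest at most 2.43%. The biological coefficient of variation (the spread between libraries of a group beyond counting noise) was 8.58% for tTA::miR212, 60.7% for tTA::miR132 and 74.2% for the deletion. Values of single members below are a library's listed counts scaled to a total of 1000000 (CPM). In bulk tissue fewer cells of a type and less RNA per cell cannot be told apart. Depth is that of the listed genes only, and intervals on counts would cover counting error only.

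The members were moderately expressed genes and together took 0.360% and 0.322% of the counts in the deletion libraries, against 0.389% and 0.312% in their controls. Median levels were 45.4 and 38.5 CPM in the deletion and 49.6 and 37.8 CPM in its controls. Levels were divided by the length of the annotated transcript nearest to each listed gene. By that measure Mrpl41 stood highest over the 4 control libraries of the RefSeq tables, at 120 ± 37.9 CPM per kilobase (SD, n = 4). Mrpl20 at 102 ± 32.2, Mrpl11 at 96.7 ± 49.0, Mrpl33 at 82.5 ± 26.6 and Mrps34 at 81.2 ± 19.0 CPM per kilobase followed, and among these 5 no neighbour in the order differed from the next beyond its SD. The order ended with Mrps5, the counterpart of a bacterial small-subunit protein, at 3.94 ± 2.93 and Mrpl47 at 3.86 ± 2.82 CPM per kilobase. Some lengths exceed the listed gene, so the order holds only for the lengths used. Mrps26 (24.5 CPM per kilobase, rank 49) was divided by 4278 nucleotides but is listed from 130389493 to 130391130. Mrpl51 was divided by 2741 but is listed from 125142218 to 125144410. Their levels per kilobase are therefore too low. Control levels of the 70 members shared by the 2 tables ran together across genes (Pearson r = 0.83, Spearman rho = 0.81 on log2(CPM + 1)), with transcript length common to both tables and genes not being independent replicates.

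**Figure D2:**
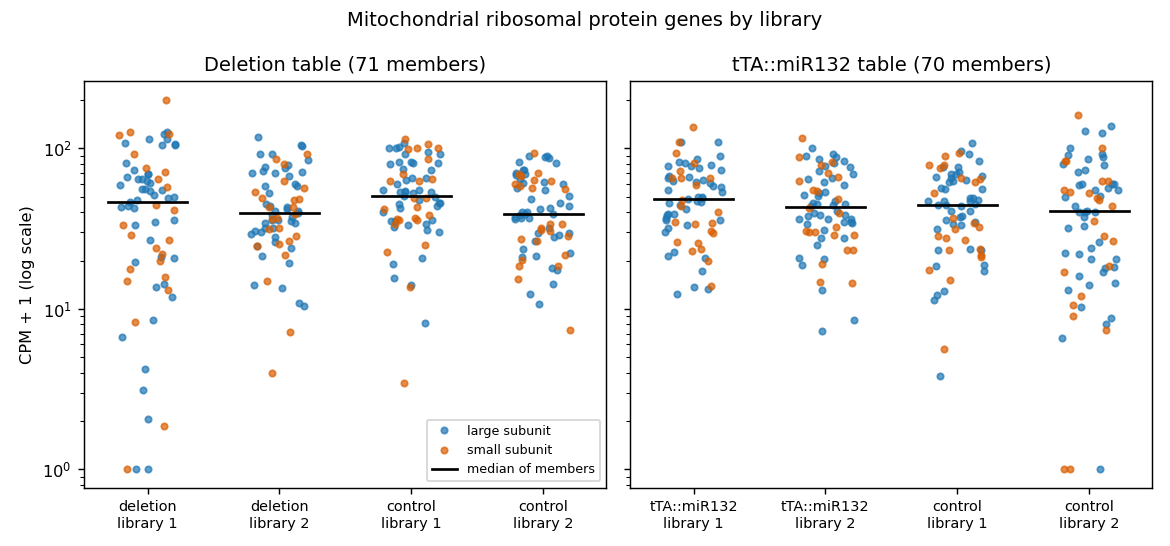
CPM + 1 of every member (points) in each library of the deletion and tTA::miR132 tables, on a log scale, with large-subunit and small-subunit genes in different colours and a bar at the median. The median bars stay close together, while deletion library 1 and tTA::miR132 control library 2 spread further down, with 3 members each at 0.

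In the deletion, no mitochondrial ribosomal protein gene passed the test (0 of 71 at an adjusted p of 0.05, edgeR quasi-likelihood test with Benjamini-Hochberg adjustment over 10487 genes, of which 0.0% passed), and 0 of 71 had an unadjusted p under 0.05 where 0.839% of genes did. DESeq2 called 0 members as well, beside 5 of all genes, and limma-voom called 0 members, beside 0 of all genes. The median log2 fold change of members was -0.07, against -0.03 over all genes, with 34 above and 37 below 0. Large-subunit genes had a median of 0.01 and small-subunit genes of -0.15. Members with a bacterial counterpart (median -0.07) and those without (-0.05) lay at about the same place. A typical member had a standard error of 0.59 on the log2 scale. These counts rested on both deletion libraries: with library 1 alone against the controls, 22 members passed, beside 4527 of all genes. With library 2 alone, 1 member passed, beside 8 of all genes. That was Mrpl15, a large-subunit protein with a bacterial counterpart (picked after its value was seen). It had 113 and 9.48 CPM in deletion libraries 1 and 2 against 79.8 and 88.5 CPM in controls, so that the deletion libraries lay on both sides of the controls.

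Summed over the members, deletion libraries had 3604 and 3219 CPM against 3894 and 3116 CPM in controls, so that the groups overlapped. The ratio of large-subunit to small-subunit CPM was 1.94 and 2.32 in the deletion and 1.98 and 2.18 in controls, again with overlap.

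Members whose deletion libraries both lay above both controls numbered 11, or 15.5%, against 14.3% of all genes. Those with both below numbered 19, or 26.8%, against 17.9% of all genes. The lower side held 10 large-subunit and 9 small-subunit genes, and the higher side 8 and 3. Without deletion library 1 the groups of 49 members did not overlap, 20 higher and 29 lower, which is 69.0% of members beside 68.2% of all genes with a lone deletion library left. In the authors' deposited table, 40 of 71 members (56.3%) had a q-value under 0.05, beside 54.3% of all genes.

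Mrps12 had the smallest p of the members (0.0939, adjusted p = 0.999, edgeR). It encodes the counterpart of a bacterial protein of the decoding centre and lies on chromosome 7 at 29524660 to 29526800 (mm9, minus strand). It stood at 201 and 61.7 CPM in deletion libraries 1 and 2, against 61.7 and 55.8 CPM in controls, for a log2 fold change of 1.20 ± 0.60 (SE, n = 2 each). Deletion library 1 was far above the rest and library 2 level with the higher control, and without library 1 the log2 fold change was 0.06. Mrps16, another small-subunit protein with a bacterial relative and a near-identical copy elsewhere in the genome that could share reads, had 126 and 35.5 CPM against 40.7 and 14.3 CPM (1.60 ± 0.83, SE), with overlapping groups. Mrpl36, a large-subunit protein kept from bacteria, had 105 and 43.8 CPM against 41.8 and 37.8 CPM (0.94 ± 0.58, SE). In all of these, deletion library 1 was the highest, and without it the log2 fold changes of Mrps16 and Mrpl36 were 0.35 and 0.13. Mrpl9, a large-subunit protein with a bacterial counterpart on chromosome 3 at 94247258 to 94252630, differed from that pattern. Its deletion libraries had 125 and 117 CPM against 91.3 and 81.3 CPM in controls, both above both controls and close to each other (0.51 ± 0.31, SE, unadjusted p = 0.149, edgeR).

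On the lower side, Mrpl38, a large-subunit protein without a bacterial counterpart on chromosome 11 at 115993131 to 116000182, had even values within each group. It had 20.0 and 23.7 CPM in the deletion against 42.7 and 42.5 CPM in controls (-0.94 ± 0.59, SE, unadjusted p = 0.164, edgeR), and its log2 fold change stayed between -1.03 and -0.86 when any 1 library was left out. Mrps23, a small-subunit protein found only in mitochondria, had 74.9 and 42.3 CPM against 113 and 92.4 CPM (-0.77 ± 0.44, SE). Mrps7, a small-subunit protein with a bacterial counterpart, had 40.4 and 52.7 CPM against 99.1 and 61.3 CPM (-0.77 ± 0.46, SE). Both genes had deletion libraries below both controls, but the size rested on single libraries. Mrps23 stood at -0.39 without deletion library 2 and -1.29 without library 1, and Mrps7 at -0.38 without control library 1. Mrps34, found only in mitochondria, had 27.7 and 55.9 CPM against 85.1 and 66.8 CPM (-0.85 ± 0.51, SE), and -0.46 without deletion library 1 or -1.39 without library 2. The exons of Mrps7 overlap Gga3 and Mif4gd and those of Mrps34 overlap Mapk8ip3 and Nme3, so reads of these neighbours may be shared. Of the members with the highest control CPM beside Mrps23, Mrpl43 had 106 and 104 CPM against 107 and 88.5 CPM (log2 fold change 0.13), and Mrpl49 had 114 and 83.9 CPM against 101 and 85.7 CPM (0.11). Neither pair of groups was apart. The exons of Mrpl43 overlap Peo1 and those of Mrpl49 overlap Syvn1, so reads may be shared there too.

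Deletion library 1 held 0 counts for Mrpl1, which forms the mobile stalk beside the tRNA exit site, for Mrpl22, a protein of the exit tunnel, and for Mrps11, a counterpart of a bacterial small-subunit protein. Mrpl22 has a near-identical copy in the genome and the exons of Mrps11 overlap Mrpl46, so reads may be shared. Zero counts in deletion library 1 allow a level of up to 0.319 CPM (3 counts). The other libraries were far from 0. Mrpl1 had 35.0 CPM in deletion library 2 against 34.2 and 27.96 CPM in controls, Mrps11 had 35.8 against 37.3 and 20.5 CPM, and Mrpl22 had 13.0 against 17.9 and 20.1 CPM. Other genes of like level were at 0 there too. In deletion library 1, 4.23% of members stood at 0 against 12.9% of the 7726 genes whose control level lay in the members' range, and 7 members (9.86%) were more than 10 times below their control mean against 19.6%. Between deletion libraries 1 and 2 the log2 ratios of the members had an SD of 1.67, against 1.98 for genes in the members' range. Between the controls it was 0.48 against 0.69. For these SDs the range was that of the mean level over all libraries of the comparison (7612 genes), those compared included. Marker sums moved in the same table: 9 choroid plexus markers summed to 509 to 1788 CPM in the deletion against 4530 to 5090 CPM in controls, with 6 of the 9 at 0 in at least 1 library, and 8 excitatory neuron markers, 1 of them at 0 in a library, to 4483 to 5751 against 3656 to 4223 CPM. Their part in the members' values was not tested.

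**Figure D3:**
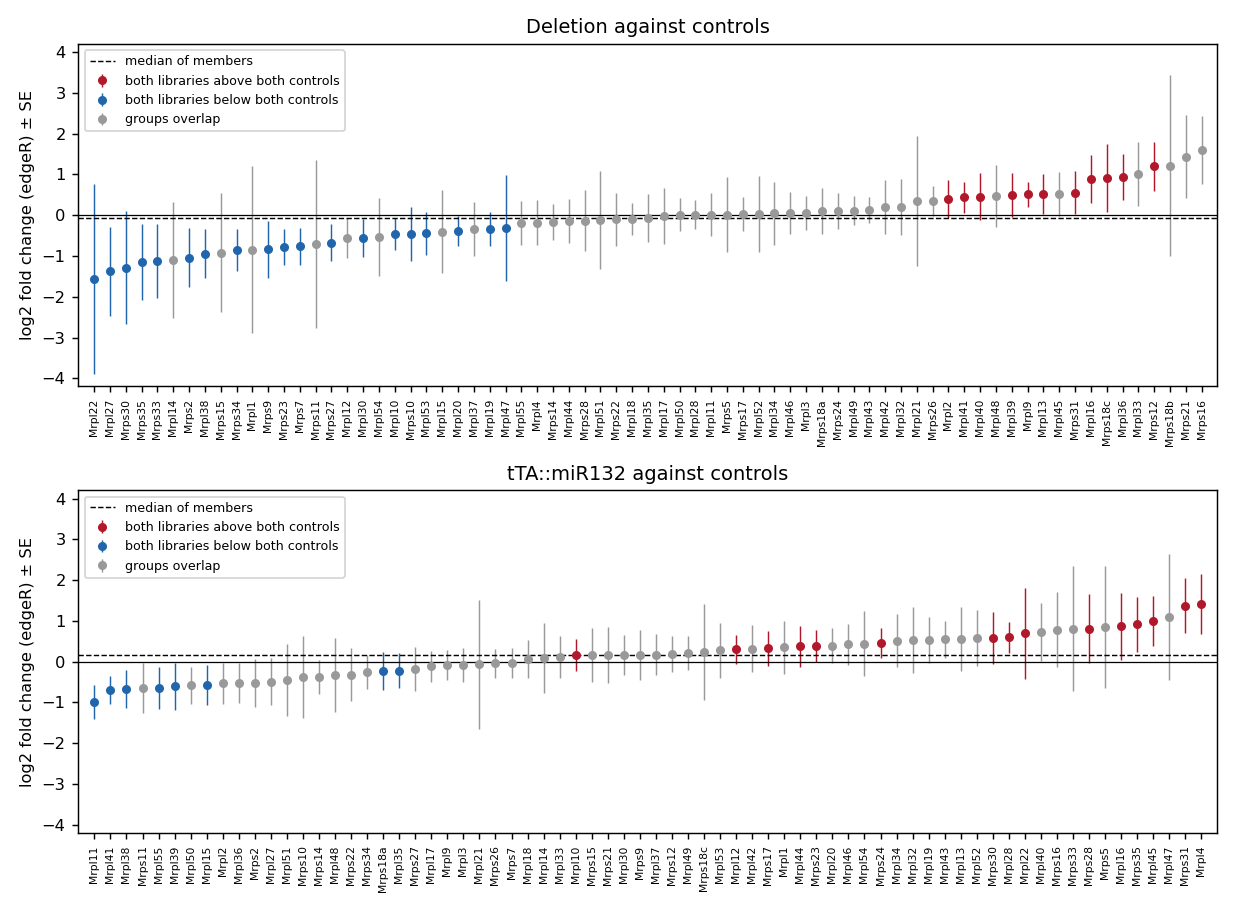
Log2 fold change ± SE (edgeR) of every member, ranked, for the deletion (upper panel, 71 members) and tTA::miR132 (lower panel, 70 members) against controls, coloured by whether both libraries lay above or below both controls. The dashed medians stand at -0.07 and 0.17, and the longest error bars belong to members at 0 in a library or with few counts.

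Under tTA::miR132 no member passed either (0 of 70, beside 0.0% of 10734 genes, edgeR with Benjamini-Hochberg adjustment). DESeq2 also called 0 members, beside 39 of all genes, and limma-voom called 0 members. The members' median log2 fold change was 0.17, against -0.00 over all genes, and 43 of 70 (61.4%) lay above 0 where 49.9% of all genes did. The medians of the large and the small subunit were alike, at 0.17 and 0.17. At an unadjusted p under 0.05 stood 1 member (1.43%), against 2.82% of genes. The spread of a single member was wide, with a median standard error of 0.57. With control library 2 alone as the control, 3 members passed, beside 111 of all genes, and these were the members at 0 in that library.

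The tTA::miR132 libraries had 3584 and 3302 summed CPM against 3193 and 3197 CPM in controls, so that both lay above both controls, 1.08-fold on average. With TMM library sizes in place of raw totals the difference was 0.07 on the log2 scale instead of 0.11. Both subunits shared it, the large at 2338 ± 134 CPM against 2203 ± 9.64 CPM and the small at 1105 ± 66.3 CPM against 992 ± 12.5 CPM (SD, n = 2 each). The large-to-small ratio was 2.11 and 2.12 in tTA::miR132 and 2.25 and 2.19 in controls. Marker sums were apart too: 6 oligodendrocyte markers summed to 4416 to 4570 CPM against 3611 to 3825 CPM, with none at 0, and 8 excitatory neuron markers to 3761 to 4226 against 4266 to 4668 CPM, with none at 0. The 5 endothelial markers summed to 162 to 165 against 183 to 244 CPM, again with none at 0. Their part in the members' sum was not tested.

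Members with both tTA::miR132 libraries above both controls numbered 15, or 21.4%, against 18.7% of all genes, and 8, or 11.4%, lay below, against 14.2%. Of the small-subunit genes 6 were higher and 0 lower, while of the large-subunit genes 9 were higher and 8 lower. The higher small-subunit genes were Mrps17, Mrps23, Mrps24, Mrps28, Mrps31 and Mrps35. Of the members, 33 of 70 (47.1%) had a q-value under 0.05 in the authors' deposited table, beside 53.1% of all genes.

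Mrpl11 was that single member, with an adjusted p of 0.997 (edgeR; 0.0349 unadjusted). It is the counterpart of the bacterial protein at the base of the factor-binding stalk and lies on chromosome 19 at 4962306 to 4966995 (mm9, plus strand). It had 59.9 and 49.6 CPM in tTA::miR132 against 75.4 and 136 CPM in controls (-0.997 ± 0.418, SE, n = 2 each). Both transgenic libraries lay below both controls, and control library 2 was the highest by far. Without that control the log2 fold change was -0.47. Mrpl41, a large-subunit protein without a bacterial counterpart on chromosome 2 at 24827990 to 24830618, had 80.8 and 68.2 CPM against 107 and 127 CPM (-0.70 ± 0.35, SE). Its groups were apart and its values even within each, and leaving out any 1 library gave -0.83 to -0.53. Mrpl38, even in the deletion, had 54.3 and 37.3 CPM against 56.0 and 84.8 CPM (-0.67 ± 0.47, SE). Here its size rested on single libraries, at -0.30 without control library 2, -0.41 without transgenic library 2 and -0.97 without transgenic library 1.

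Higher values came with a low control library 2 in several genes. Mrpl4, whose bacterial counterpart lines the exit tunnel, had 46.2 and 35.2 CPM in tTA::miR132 against 22.2 and 7.71 CPM in controls (1.41 ± 0.74, SE, unadjusted p = 0.0807, edgeR). Mrps31, a small-subunit protein found only in mitochondria, had 58.4 and 38.8 CPM against 27.3 and 9.52 CPM (1.37 ± 0.68, SE). Mrpl45, which sits at the tunnel exit facing the inner membrane, had 74.9 and 64.4 CPM against 55.3 and 13.0 CPM (1.00 ± 0.62, SE). In these 3 genes control library 2 was the lowest of the 4 libraries. Without it the log2 fold changes were 0.86 for Mrpl4, 0.82 for Mrps31 and 0.33 for Mrpl45. Mrpl28, a large-subunit protein kept from bacteria, had controls that lay close together, with 108 and 85.0 CPM against 65.5 and 58.7 CPM (0.60 ± 0.38, SE). Mrps35, found only in mitochondria, had 42.7 and 31.5 CPM against 22.3 and 16.0 CPM (0.91 ± 0.67, SE), with the groups apart.

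Control library 2 held 0 counts for Mrpl47, Mrps5 and Mrps33, which allows up to 0.361 CPM (3 counts). Mrpl47, whose exons overlap Actl6a and Ndufb5, had 30.7 and 17.8 CPM in tTA::miR132 against 22.4 CPM in control library 1. Mrps5 had 39.3 and 18.1 against 31.5 CPM, and Mrps33, found only in mitochondria and with a near-identical copy in the genome, had 25.1 and 22.3 against 26.8 CPM. Control library 1 lay between the transgenic libraries for Mrpl47 and Mrps5 and just above them for Mrps33. Zeros in control library 2 were found in 4.29% of members and in 0.658% of the 7446 genes in the members' range of control level, or 4.49% of all genes. That control level includes control library 2 itself, which keeps genes at 0 there out of the range. The share of members and the share in range therefore cannot be compared directly. The log2 ratio between the controls had an SD of 1.41 over members against 1.31 over genes in range, while between the transgenic libraries it was 0.56 against 0.80. For these SDs the range was that of the mean level over all libraries of the comparison (7636 genes). Mrps26, a small-subunit protein without a bacterial counterpart and the member with the highest control CPM here, had 136 and 116 CPM against 89.0 and 162 CPM (-0.04), and its controls enclosed both transgenic values.

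**Figure D4:**
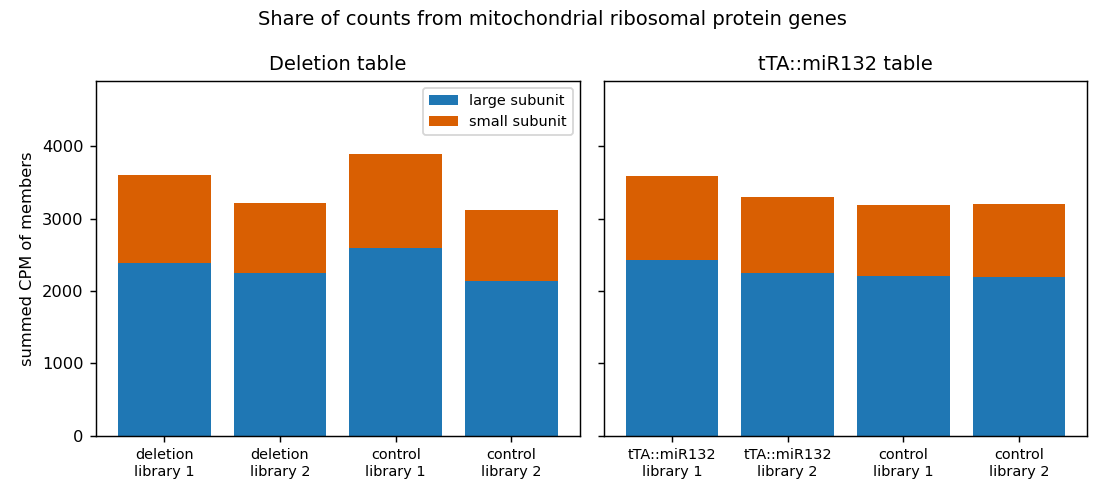
Summed CPM of the members in each library of the deletion and tTA::miR132 tables, stacked by subunit, on an axis that starts at 0. The deletion libraries (3604 and 3219 CPM) overlap their controls (3894 and 3116 CPM), and both tTA::miR132 libraries (3584 and 3302 CPM) stand above theirs (3193 and 3197 CPM).

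The tTA::miR212 table listed Mrpl10, Mrpl48, Mrps25, Mrps26 and Mrps34, from 7 transcripts, and no member passed (0 of 5, beside 0.0% of 4618 genes, edgeR with Benjamini-Hochberg adjustment; 0 of 5 with DESeq2 and with limma-voom). The libraries were far closer to each other here, with a median standard error of 0.14. At an unadjusted p under 0.05 stood 1 of 5 members, beside 5.63% of genes. The 5 together had 526, 500 and 423 CPM in tTA::miR212 against 491, 459 and 504 CPM in controls, with overlap. The 3 microglia markers listed there summed to 311 to 366 CPM in tTA::miR212 against 282 to 307 CPM in controls, with none at 0, and their part was not tested.

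Mrpl10, the large-subunit protein that anchors the stalk where translation factors bind, was that member. The gene lies on chromosome 11 at 96902874 to 96910527 (mm9, plus strand). It had 65.9, 77.03 and 57.5 CPM in tTA::miR212 against 50.0, 48.5 and 53.8 CPM in controls, or 66.8 ± 9.78 against 50.8 ± 2.73 CPM (SD, n = 3 each). Every transgenic library lay above every control, as for 6.47% of genes in that table, with a log2 fold change of 0.39 ± 0.18 (SE, unadjusted p = 0.0455, adjusted p = 0.876, edgeR) that stayed between 0.28 and 0.48 with any 1 library left out. By the authors' deposited table, q-values under 0.05 were found for 0 of 5 members, beside 0.0866% of genes, and that of Mrpl10 was 1.0.

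In the other genes the groups overlapped, and 0 of 5 members had every transgenic library below every control, beside 4.96% of genes. Mrpl48, a large-subunit protein without a bacterial counterpart, had 158, 137 and 104 CPM in tTA::miR212 against 154, 131 and 164 CPM in controls (-0.19 ± 0.14, SE). Mrps25, of the small subunit and listed only in this table, had 123, 121 and 114 CPM against 121, 114 and 130 CPM (-0.04 ± 0.11, SE). Mrps34 had 106, 94.5 and 93.6 CPM against 110, 95.4 and 89.4 CPM (-0.02 ± 0.12, SE). The tTA::miR212 values of Mrps25 and Mrps34 lay close to the controls. Library 3 of tTA::miR212 lay below every control for Mrpl48, for Mrps26 and, narrowly, for Mrps25 (113.7 against a lowest control of 113.9 CPM). Without library 3 the log2 fold change of Mrpl48 was -0.04. The exons of Mrpl48 overlap D630004N19Rik and Rab6, and those of Mrps25 overlap Nr2c2, so reads may be shared. Mrps26 had 73.6, 71.2 and 54.2 CPM against 56.6, 70.0 and 65.9 CPM (0.03 ± 0.17, SE), with library 3 the lowest transgenic value. Library 3 of tTA::miR212 had the lowest value of its group in all 5 genes.

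**Figure D5:**
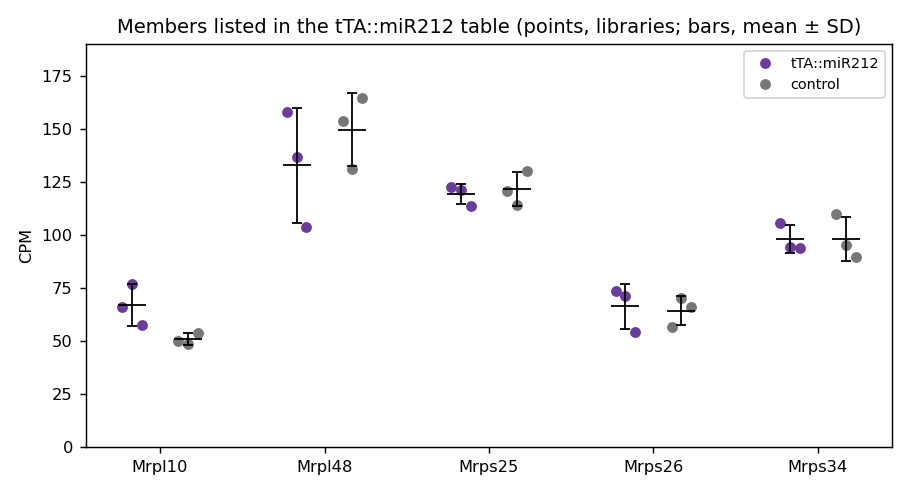
CPM of the 5 members listed in the tTA::miR212 table, by library (points), with mean ± SD bars (n = 3 each), tTA::miR212 left of controls. Mrpl10 is the gene whose points do not overlap, at 57.5 to 77.03 CPM against 48.5 to 53.8 CPM.

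Loss and gain of miR-132 were set side by side for the 70 members of both tables, which share no libraries. The log2 fold changes of the deletion and of tTA::miR132 were nearly unrelated across members (Pearson r = 0.06, Spearman rho = 0.07), and 34 of 70 (48.6%) had opposite signs, beside 50.5% of 9980 genes. Groups were apart in both tables for 10 members (14.3%), beside 10.8% of the 9991 genes in both, on opposite sides for 7 (10.0%, beside 5.54%) and on the same side for 3 (4.29%, beside 5.24%). These shares were not tested. Mrpl10, Mrpl22, Mrps23, Mrps30 and Mrps35 were lower in the deletion and higher under tTA::miR132. Mrpl39 and Mrpl41 were higher in the deletion and lower under tTA::miR132. Mrpl16 and Mrps31 were higher in both, and Mrpl38 lower in both. Mrps23, as an example of the first pattern, had 92.3 and 81.4 CPM in tTA::miR132 against 77.4 and 52.5 CPM in controls (0.38 ± 0.39, SE), beside its lower deletion values above. Mrpl41 had 105 and 77.8 CPM in the deletion against 73.9 and 63.4 CPM in controls (0.44 ± 0.38, SE), beside its lower tTA::miR132 values.

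Of the 4 genes listed in all 3 tables, Mrpl10 was below both controls in the deletion (48.8 and 70.4 against 79.5 and 86.9 CPM, -0.46 ± 0.39, SE). Under tTA::miR132 it was slightly above both (77.4 and 77.2 against 75.9 and 59.3 CPM, 0.15 ± 0.39, SE). Its value was above all controls under tTA::miR212 as well, though none of the 3 differences passed the adjusted test. Mrps26 had log2 fold changes of 0.35 (deletion), -0.04 (tTA::miR132) and 0.03 (tTA::miR212), Mrps34 of -0.85, -0.25 and -0.02, and Mrpl48 of 0.47, -0.33 and -0.19. The tTA::miR212 values come from a transcript, not a gene entry. For Mrpl48 that table gave 133 ± 27.3 CPM in tTA::miR212 and 150 ± 17.1 CPM in controls (SD, n = 3 each), while the other tables gave 11.3 to 42.2 CPM in every library. Its entries in the different tables may therefore not count the same reads.

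The rest of the mitochondrial translation machinery had no called gene either. Of 61 genes tested in the deletion, in 5 lists (ribosomal proteins with other symbols, translation factors, aminoacyl-tRNA synthetases, assembly and rRNA modification, transcription and biogenesis), 0 passed and 0 had an unadjusted p under 0.05. Under tTA::miR132 0 of 61 passed and 2 (3.28%) had an unadjusted p under 0.05, beside 2.82% of all genes, and under tTA::miR212 it was 0 of 11 by either measure. In the deletion 24 lay above and 37 below 0 (39.3% above, beside 47.9% of all genes), and under tTA::miR132 37 above and 24 below (60.7% above, beside 49.9%). The lists did not share one direction. Synthetases, which load mitochondrial tRNAs, had 4 of 18 above 0 in the deletion (median -0.34) and 13 of 19 under tTA::miR132 (median 0.10), and assembly factors 4 of 16 (-0.25) and 11 of 16 (0.19). Transcription and biogenesis genes had 8 of 11 above 0 in the deletion (0.30) and 5 of 11 under tTA::miR132 (-0.27). Translation factors had 4 of 9 (-0.12) and 2 of 8 (-0.49), and ribosomal proteins with other symbols 4 of 7 (0.11) and 6 of 7 (0.29).

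Among ribosomal proteins with other symbols, Dap3, a GTP-binding protein of the small subunit, had 60.5 and 93.2 CPM in the deletion against 124 and 145 CPM in controls (-0.79 ± 0.35, SE, unadjusted p = 0.0633, edgeR). Under tTA::miR212 it had 88.9, 80.3 and 94.3 CPM against 73.6, 67.0 and 80.3 CPM (0.24 ± 0.13, SE). The deletion values were below both controls, and those of tTA::miR212 overlapped. Among translation factors, Guf1, an elongation-type GTPase, had 13.6 and 24.5 CPM in the deletion against 59.5 and 44.6 CPM in controls (-1.43 ± 0.62, SE, unadjusted p = 0.0603, edgeR).

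Of assembly factors, Eral1, a chaperone of the small-subunit rRNA, had 61.3 and 36.1 CPM in the deletion against 20.6 and 17.6 CPM (1.39 ± 0.63, SE), and Nsun4, an rRNA methyltransferase, had 65.8 and 21.7 against 9.22 and 16.8 CPM (1.79 ± 0.86, SE). Both were above both controls, with unadjusted p of 0.0696 and 0.0832 and adjusted p of 0.999 (edgeR). Deletion library 1 was the highest in both genes, and library 2 of Nsun4 stood at 21.7 CPM beside a control at 16.8 CPM. Under tTA::miR132, Mterfd2, the partner of Nsun4 in large-subunit assembly, had 34.5 and 28.2 CPM against 11.2 and 3.61 CPM (2.05 ± 0.92, SE, unadjusted p = 0.0462, edgeR). Esrra, a nuclear receptor that drives mitochondrial genes, had 62.3 and 43.4 CPM against 18.7 and 19.8 CPM (1.42 ± 0.58, SE, unadjusted p = 0.0316, edgeR). These 2 genes, both above both controls, were the pathway genes at an unadjusted p under 0.05 there, with adjusted p-values of 0.997.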

How the data were processed

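Per the file headers, the authors deposited raw read counts, for genes (deletion, tTA::miR132) or transcripts (tTA::miR212). Per the design text, the authors pooled cDNA of 6 animals into 3 replicates per group and aligned with Bowtie 0.12.7 to mm9; Cufflinks 1.2 values are not used here. Counting tool, strand setting, annotation and gene filter: none is stated in the sources used here. The authors' deposited q-values are quoted as theirs, and 14 normalized columns were not used. A second header line inside the deletion table was skipped. The starts of the RefSeq tables were read as counted from 0, because 5804 of 10541 lie 1 below an annotated start, and are printed counted from 1.

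Members and gene lists were chosen with earlier results of these data known. For tTA::miR212 the transcript with the highest mean count per symbol was kept. CPM used raw listed totals. Each table was fitted alone in R 4.3.3 with edgeR 4.0.16 (TMM, filterByExpr, robust quasi-likelihood test, Benjamini-Hochberg adjustment, threshold 0.05). Standard errors (SE) were worked back from that test, as the size of the log2 fold change divided by the square root of its F statistic. A check on simulated data drew counts with a dispersion (the square of the biological coefficient of variation) of at most 0.05. Dispersions of the deletion and tTA::miR132 were larger, so it does not show how the test performs at their spread. DESeq2 1.42.0 and limma-voom (limma 3.58.1) were alternatives. Ratios between libraries used log2(CPM + 1). Named per comparison were the 8 members with the smallest p, the 3 with the highest control CPM and any member at 0 in a library; of the pathway lists, at most 2 genes with the smallest p. Other members are given by counts, as examples of groups apart in both tables, or for a seed site. Near-identical copies (95% identity over 50% of a transcript, blastn 2.17.0) exist for 11 members, and exons of 19 overlap another protein-coding gene. Replicate libraries differed beyond sampling noise (lowest chi-square per degree of freedom 1.39). Columns could not be tied to single samples, so p-values reflect only the variation among libraries, assumed to be separate pools. Same-numbered libraries did not deviate together (correlations -0.08 to 0.02), so numbers were not treated as pairs.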

Additional observations from a re-analysis of the deposited data

How the results depend on the processing

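The count of members passing stayed at 0 in each comparison under DESeq2, limma-voom, DESeq2 size factors, no filter on low counts and, for tTA::miR212, summed transcripts. Over all genes DESeq2 called 5 in the deletion and 39 under tTA::miR132. Library numbers as a replicate block also left it at 0; under the block the members' median for tTA::miR132 was 0.27 (0.04 over all genes) and Mrps26 there stood at 0.0203, and with limma-voom Mrps26 stood at 0.0911. The cause of these shifts was not tested. Leaving out 1 library at a time, with a lone library assumed to vary like the others, gave 0 to 22 members passing for the deletion. The 22 came without deletion library 2, where 4527 genes passed, and 1 (Mrpl15) came without library 1. For tTA::miR132 it gave 0 to 3 (Mrps5, Mrpl47 and Mrps33, without control library 1, where 111 genes passed), and for tTA::miR212 0 to 0. Medians ran from -0.26 to 0.06 (deletion), 0.0931 to 0.30 (tTA::miR132) and -0.0639 to 0.015 (tTA::miR212). Members with groups apart numbered 43 to 63 (deletion; 53.8% to 87.1% of all genes), 34 to 62 (tTA::miR132; 55.6% to 80.4%) and 1 to 2 (tTA::miR212; 19.0% to 27.5%), and the log2 fold change of the summed CPM was -0.19 to 0.13, 0.0472 to 0.17 and -0.0695 to 0.0832. Fewer libraries make groups apart more often by construction. Values that changed sign were Mrpl1 (-11.11 to 0.16), Mrps11 (-11.00 to 0.29) and Mrpl49 (-0.17 to 0.35) in the deletion. Under tTA::miR132 they were Mrps26 (-0.43 to 0.49), Mrps33 (-0.18 to 10.96) and Mrps5 (-0.14 to 11.24), and under tTA::miR212 Mrps25 (-0.0841 to 0.015), Mrps26 (-0.0548 to 0.16) and Mrps34 (-0.0754 to 0.0658). Fitted values beyond 10 rest on a group at 0 and are no measure of size. Without members that have a copy or overlap another gene (chosen after seeing the data), medians were -0.04 and 0.16 for the deletion and tTA::miR132. Of the 44 members left, 21 (47.7%) lay above 0 in the deletion, beside 47.9% of all members. Under tTA::miR132 it was 24 (54.5%), beside 61.4% of all members and 49.9% of all genes.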
